A study of Mus musculus with 51 samples.

Results

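Open chromatin sites that lie far from any gene were examined in mouse neutrophils, before and after the cells entered a zymosan-inflamed air pouch. A site was taken as far intergenic when it overlapped no gene body and lay more than 50000 bp from every gene start in the annotation of the deposited tissue count table. Of 47164 merged ATAC-seq sites, 2061 (4.37%) met this rule. The other sites comprised 11638 intergenic sites nearer to a gene start, 20064 sites in a gene body and 13401 sites within 1000 bp of a gene start. The choice among merged sites used position only. The merged sites are themselves open chromatin peaks of the libraries whose accessibility is compared below.

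The air pouch was used on day 6, and cells were collected 4 h after 100 µg zymosan, a yeast cell wall particle that activates innate immune receptors. Ly6G+ neutrophils of the exudate, the membrane that lines the pouch, blood and bone marrow were sorted, at 75000 cells for each of the 2 ATAC-seq libraries per tissue. RNA came from neutrophils of the same 4 tissues, with 2 libraries from membrane, 3 from bone marrow and 5 each from blood and exudate, and all of these cells were sorted from CX3CR1GFP Ly6GCre-tdTomato mice, which carry a fluorescent reporter at CX3CR1 and a Cre driven from Ly6G. The mouse genotype is given for the RNA libraries only, every tissue came from mice with an inflamed pouch, and age, sex and pooling of animals are not given in the sources used here. RNA was also read in wild-type ER-Hoxb8 neutrophils, which derive from progenitors held immature by an oestrogen-dependent Hoxb8, were left to mature for 5 days and received 50 µg/ml zymosan or its vehicle DMSO for 2 h. These came in 2 sequencing sets with 2 libraries per group. Each set was fitted with its knockouts, CEBPB-/- and JUNB-/- in set 1 and IRF5-/- and RELB-/- in set 2. The labels do not say whether libraries came from separate mice or cultures, so p-values measure only the spread between the libraries of a fit.

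Chromatin far from genes is opened mainly at enhancers, short stretches where transcription factors displace nucleosomes and from which they can act on promoters over long distances. In neutrophils such elements are established during maturation by lineage factors such as PU.1, C/EBP proteins and RUNX1, and inflammatory signals add AP-1, NF-κB and IRF factors to them. Enhancers of immune genes often occur in groups within 1 gene-free interval, and the gene an enhancer acts on need not be the nearest one.

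The neutrophil identity of the RNA libraries was checked first, because the nearest genes of the sites are read from them. All 8 neutrophil markers, among them Ly6g and S100a8, passed the count filter, and their summed level was 85123 to 344605 CPM in exudate, 189356 to 308871 in blood and 202205 to 257653 in bone marrow. In membrane it was 106754 to 154139 CPM, below every blood and bone marrow library. Bone marrow libraries had summed erythroid markers of 3.43 to 1309 CPM, B cell markers of 7.66 to 56.6 and T and NK cell markers of 19.9 to 64.8, and in both membrane libraries all erythroid markers were at 0 and the B cell and T and NK cell sums were at most 0.512. Summed monocyte and macrophage markers (8 genes, 4 of which passed the filter) were 662 to 954 CPM in exudate and 735 to 982 in membrane, against 111 to 692 in blood and 3.96 to 165 in bone marrow. Ly86 was at 0 in every blood library, Adgre1 and C1qa in every bone marrow library, and Ly86 and C1qa in both membrane libraries. The part of these cell types in the results below was not tested. Tissue libraries held 9.24 to 19.1 M counts in genes. The column headers of the count table carry 100 or 300, whose meaning is not given in the sources used here. All 3 bone marrow libraries carry 100 and both membrane libraries 300, so in these 2 tissues it cannot be told apart from the tissue, while exudate (2 and 3) and blood (3 and 2) hold both. No library-level accessibility values were used here, so differences in accessibility rest on the authors' deposited lists of differential sites, each with a direction and a −log10 adjusted p per site.

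A few far intergenic sites coincided with the start of a RefSeq transcript outside the count table's annotation, and these gave sequence to show. RefSeq start windows (300 bases, from 250 before to 50 after the start) overlapped 41 of the sites in 45 windows of 42 genes, 44 of the windows being of long noncoding RNAs (lncRNAs). Of these 41 sites, 19 were in at least 1 list, and 7 windows lay in sites found in 3 or more lists. The windows printed here were chosen after their values were seen. They are the one with the highest −log10 adjusted p, the one in a less accessible site, and both windows with more than 1 AP-1 match. Capitals mark matches on either strand to AP-1 (TGANTCA), C/EBP (TTGCNNAA), PU.1 (AGGAAGT) or RUNX (TGTGGTT) letters, as given by RefSeq for GRCm38.p6 and written on the strand of the transcript.
Gm36199: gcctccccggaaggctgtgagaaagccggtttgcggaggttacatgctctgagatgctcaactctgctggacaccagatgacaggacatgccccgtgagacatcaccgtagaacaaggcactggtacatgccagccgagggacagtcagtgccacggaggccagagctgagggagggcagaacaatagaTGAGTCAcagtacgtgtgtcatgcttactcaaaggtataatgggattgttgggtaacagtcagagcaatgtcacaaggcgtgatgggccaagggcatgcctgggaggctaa
Gm33315: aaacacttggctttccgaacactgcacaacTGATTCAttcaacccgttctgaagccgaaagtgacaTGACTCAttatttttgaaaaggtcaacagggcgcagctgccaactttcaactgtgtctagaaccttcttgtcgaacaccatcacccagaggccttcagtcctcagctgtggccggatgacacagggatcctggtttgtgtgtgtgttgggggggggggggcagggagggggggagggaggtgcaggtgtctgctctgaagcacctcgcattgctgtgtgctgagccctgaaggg
A530046M15Rik: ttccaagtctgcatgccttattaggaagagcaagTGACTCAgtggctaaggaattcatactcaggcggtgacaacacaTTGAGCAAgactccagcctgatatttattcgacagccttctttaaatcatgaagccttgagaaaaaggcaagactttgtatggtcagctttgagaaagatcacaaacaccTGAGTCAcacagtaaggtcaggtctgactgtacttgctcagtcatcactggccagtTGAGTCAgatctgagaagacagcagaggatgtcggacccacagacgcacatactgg
Gm40441: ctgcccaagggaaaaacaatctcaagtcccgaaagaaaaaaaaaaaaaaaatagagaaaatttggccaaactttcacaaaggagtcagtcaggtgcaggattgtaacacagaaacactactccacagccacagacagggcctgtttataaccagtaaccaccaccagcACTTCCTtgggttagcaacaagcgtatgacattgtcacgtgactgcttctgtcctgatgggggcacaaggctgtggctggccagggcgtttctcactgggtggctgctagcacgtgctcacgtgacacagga

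The Gm36199 window (chr17:29434568-29434867, + strand) has 1 AP-1 match, at base 190, and lies 55.75 kb from the start of Pim1, a kinase gene induced by cytokines. Its site was more accessible in the pouch in 4 of the authors' deposited lists, with −log10 adjusted p of 10.9 for exudate against bone marrow and 7.13 for exudate against blood. The Gm33315 window (chr13:52829022-52829321, + strand) has AP-1 matches at bases 31 and 67, and its site reached 6.96 for exudate against bone marrow in the authors' deposited list. The A530046M15Rik window (chr13:15806993-15807292, + strand) has 3 AP-1 matches and 1 C/EBP match, and its site, 204.4 kb from Inhba, was more accessible in 4 lists. The Gm40441 window (chr12:72844379-72844678, - strand) holds a PU.1 match at base 169 and no AP-1 match. Its site, 82.95 kb from the phosphatase gene Ppm1a, was less accessible in exudate and membrane, with 8.88 for exudate against bone marrow in the authors' deposited list. Of the remaining 3 such windows, Gm33398 has 1 AP-1 and 1 PU.1 match, 4930554I06Rik has 1 RUNX match and Gm31342 has none.

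AP-1 letters occurred in 24.4% (11) of the 45 windows and in 39.1% (9) of the 23 windows of listed sites, against 7.81% of all 32851 RefSeq start windows. C/EBP letters were in 17.8% of the 45 windows against 10.8% of all, PU.1 letters in 20% against 9.35%, and RUNX letters in 13.3% against 5.27%. In the 23 windows of listed sites, C/EBP letters were in 21.7% (5), PU.1 letters in 17.4% (4) and RUNX letters in 13% (3). The median GC content was 48.7% in the 45 windows and 52.7% over all windows. Only 35.3% of all windows are of lncRNAs, so the 2 collections differ in kind, and a match describes letters and not a bound site.

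Far intergenic sites had lower deposited scores and fewer merged peaks than the other classes of sites. The median deposited score, whose scale is unknown, was 60, against 75 for nearer intergenic sites, 75 in gene bodies and 204.7 at gene starts. The median number of peaks merged into a site was 2, against 3, 3 and 8, and the median width was 513 bp against 531, 532 and 558 bp. A single peak made up 42.6% of far intergenic sites, compared with 23.6% of all sites, and 16.1% had 8 or more merged peaks, compared with 59.4% at gene starts. With 1 value per gene-free interval, these medians were 49.1 for the score and 1.5 for the merged peaks.

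Sites lay a median of 84738 bp from the nearest gene start (interquartile range 63558 to 137196 bp, highest 876569 bp). The nearest sites inside the 50000 bp limit were at 50011, 50057 and 50062 bp, beside Sept5, Gm26008 and 1700065J11Rik, and none of these was in a list. Just outside, sites were at 49986, 49952 and 49887 bp, beside Vis1, Kctd1 and A730004F24Rik, in 0, 5 and 1 lists. The 2023 sites on chromosomes with genes fell into 911 gene-free intervals, of which 543 held 1 site and 87 held 5 or more. Those 87 intervals contained 760 sites. Another 38 sites were on 8 scaffolds without annotated genes, and none of these was in a list.

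Far intergenic sites were spread unevenly over the chromosomes. On autosomes 1 to 11, 752 of 31490 sites (2.39%) were far intergenic, and on autosomes 12 to 19, 1233 of 14748 (8.36%). Chromosome 13 had 314 of 2179 (14.4%), the highest share of any autosome. The count table as used here held 1.09 genes per RefSeq gene on autosomes 1 to 11 and 0.753 on autosomes 12 to 19, and the part of this gap in the shares was not tested. With RefSeq genes excluded too, the shares were 1.47% and 4.13%, and the difference kept its direction. In all, 418 sites (20.3%) overlapped a RefSeq gene body, 37 of them a coding one, and 1141 (55.4%) were also far from every RefSeq gene.

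**Figure D1:**
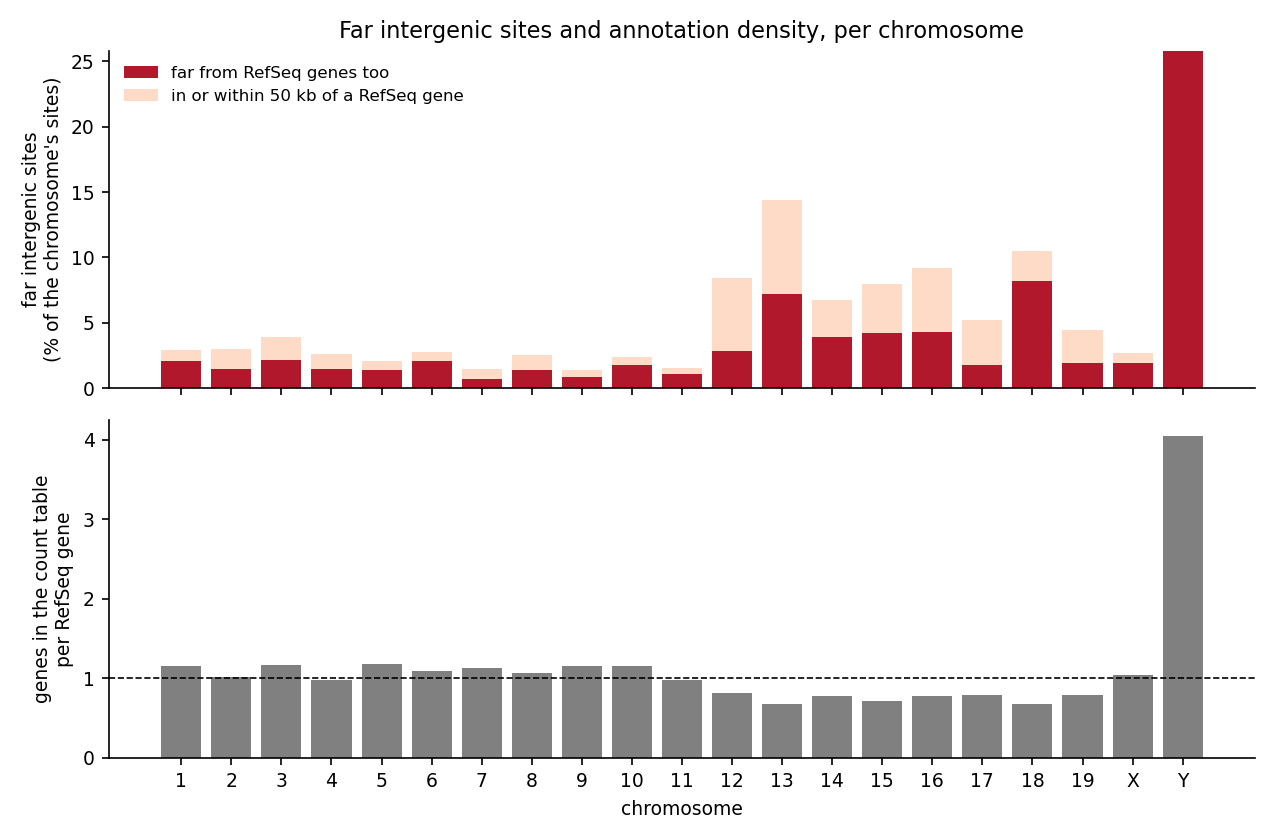
Upper plot, far intergenic sites as a percent of all sites on each chromosome, divided into those also far from RefSeq genes (dark) and those in or within 50 kb of a RefSeq gene (light). Lower plot, genes in the count table per RefSeq gene, with a dashed line at 1. Autosomes 12 to 19 have higher shares and fewer table genes than autosomes 1 to 11 (8.36% against 2.39% of sites), and chromosome Y rests on 16 of 62 sites.

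Distal open chromatin differed between tissues mostly toward more accessibility in the pouch, as all merged sites did. In total 466 far intergenic sites (22.6%) were in at least 1 of the 10 deposited lists, against 23.5% of nearer intergenic sites, 23.4% in gene bodies and 11.7% at gene starts. For exudate against bone marrow, 230 far intergenic sites (11.2%) were more accessible against a background of 9.93% of all merged sites, and 103 (5%) were less accessible against 4.72%. For exudate against blood the counts were 151 (7.33%) more accessible, with a background of 6.01%, and 49 (2.38%) less accessible, with a background of 2.3%. Membrane against bone marrow gave 207 sites (10%) with more accessibility, background 8.6%, and 109 (5.29%) with less, background 4.55%. Membrane against blood gave 117 (5.68%) with more, background 4.72%, and 45 (2.18%) with less, background 1.92%. Blood against bone marrow, the comparison with the fewest sites, gave 35 (1.7%) with more, background 1.19%, and 22 (1.07%) with less, background 0.812%.

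Each share of far intergenic sites was a little above its background, but sites also far from RefSeq genes gave lower shares. For those, the shares with more accessibility were below background, at 7.98% for exudate against bone marrow, 5.08% for exudate against blood, 6.31% for membrane against bone marrow, 3.42% for membrane against blood and 0.964% for blood against bone marrow. With less accessibility they were 3.77%, 1.58%, 4.56%, 1.84% and 0.613% in the same order, of which 4.56% was above its background. Among all far intergenic sites, the 11.2% with more accessibility in exudate than bone marrow lay below the 12.5% of nearer intergenic sites and the 11.9% in gene bodies. At gene starts the same comparison gave 4.6% with more and 3.78% with less accessibility, a smaller gap between the directions than the 11.2% and 5% of far intergenic sites. The lists carry no value per library, so these differences between position classes have no test over samples.

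**Figure D2:**
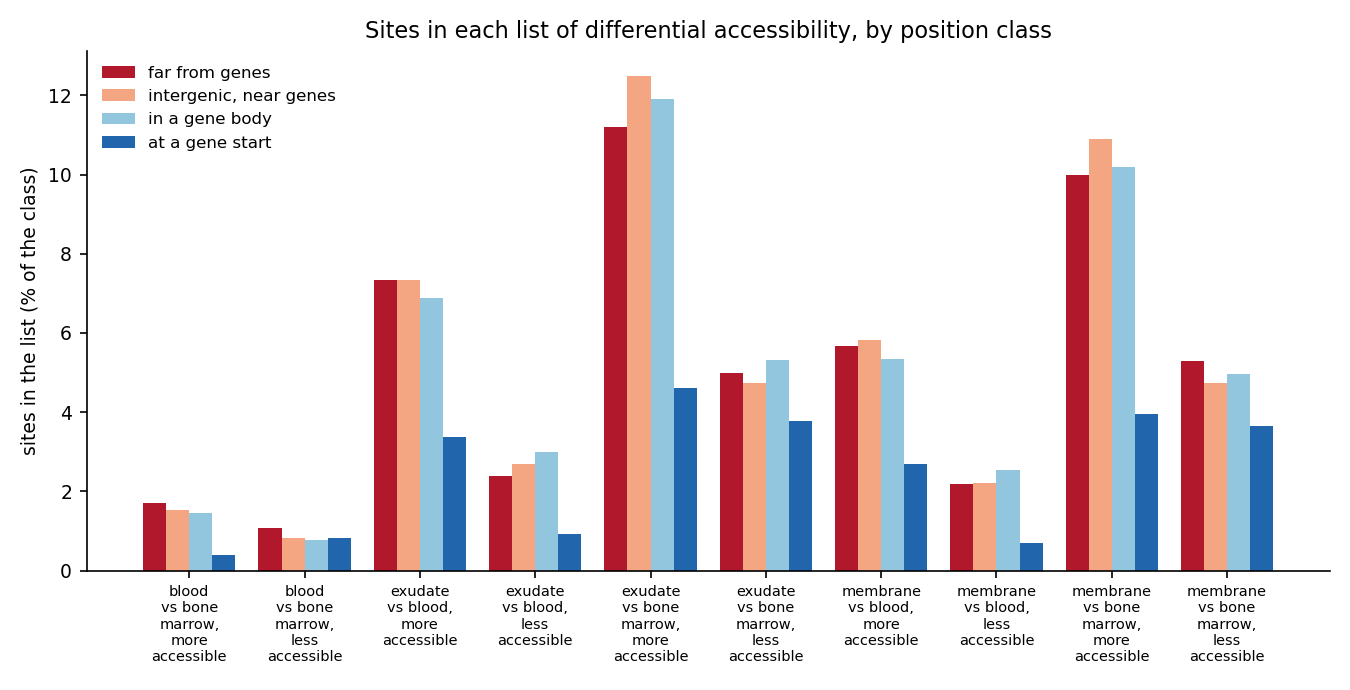
Percent of sites in each of the 10 deposited lists of differential accessibility, for far intergenic sites, nearer intergenic sites, sites in gene bodies and sites at gene starts. Bars are shares of each class and have no error bar, because the lists hold no value per library. Far intergenic sites reach 11.2% for more accessible in exudate than bone marrow, against 4.6% at gene starts.

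How many peaks had been merged into a site went with how often it was listed, but the 2 are not independent. The merged peaks come from the same ATAC-seq libraries that the lists compare, so the bins are no separate evidence. Among far intergenic sites made of 1 peak, 8.42% were in any list, against 11.7% of all single-peak sites. With 2 to 4 peaks the share was 36.1% against 27.9% of all sites, with 5 to 7 peaks 35.6% against 27.5%, and with 8 or more 26% against 15.2%. Nearer intergenic sites had 28.2%, 28.5% and 26.9% in these bins and gene bodies 29.2%, 29% and 23.4%. Gene starts had 21.2%, 22% and 7.06%, so in the top bin they lower the share of all sites. Gains in exudate over bone marrow made up 15.7%, 16.6% and 15.4% of far intergenic sites in the 3 upper bins, against 13.1%, 11.1% and 7.87% of all sites in them. For nearer intergenic sites these shares were 13.6%, 12.4% and 16.9%. Less accessible sites made up 10.7% and 11.8% of the 2 middle bins and 1.51% of the sites with 8 or more peaks, against 7.32%, 8.31% and 3.46% of all sites.

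**Figure D3:**
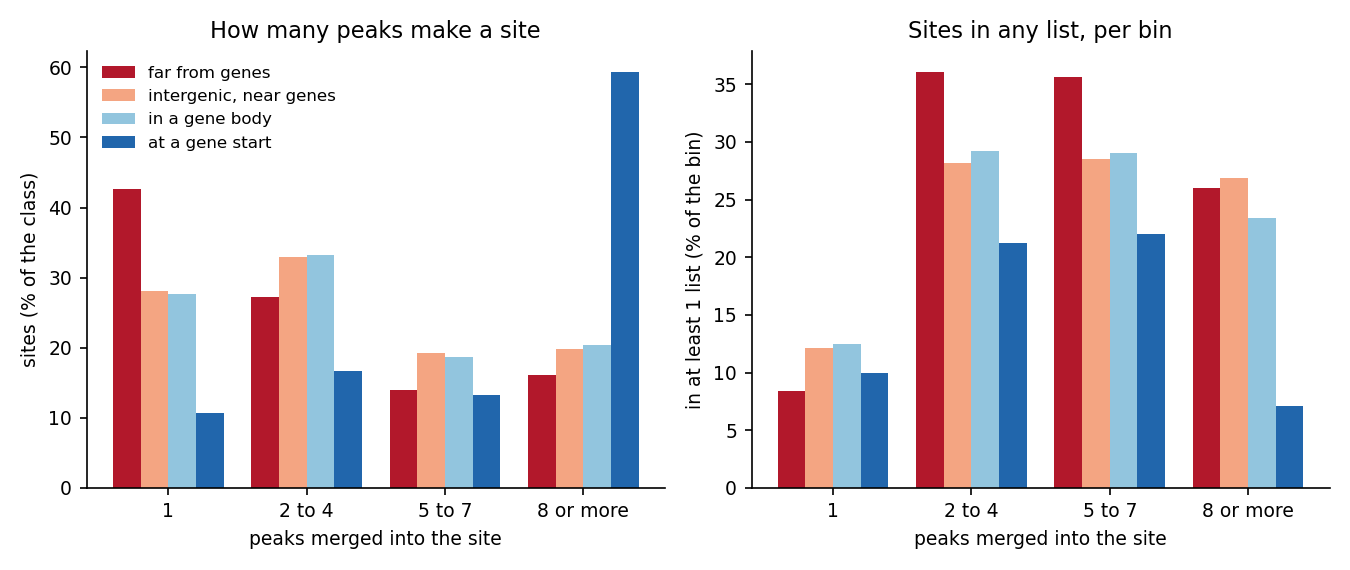
Left, percent of each class of sites by the number of peaks merged into the site (1, 2 to 4, 5 to 7, 8 or more). Right, percent of the sites in each bin that were in at least 1 list. Of far intergenic sites 42.6% are single peaks, few of which are listed (8.42%), while 36.1% of those with 2 to 4 peaks are listed.

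The share in any list was 24.9% at 50000 to 75000 bp from a gene start (816 sites), 24.8% at 75000 to 100000 bp (404), 22.3% at 100000 to 200000 bp (551) and 15.9% beyond 200000 bp (252). The median number of merged peaks was 2 in each of the 3 nearer ranges and 1 in the farthest. RefSeq annotation divided the sites further. Of the 920 sites in or near a RefSeq gene, 29.3% were listed, and of the 1141 far from RefSeq genes as well, 17.2%. For more accessible in exudate than bone marrow these shares were 15.1% and 7.98%. Sites far by both annotations were more often single peaks (50.7% against 32.6%), and among sites of 2 or more peaks 29.2% were listed, against 36.8%.

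Pouch comparisons that share no library had far intergenic sites in common, about as often as all merged sites. Of 151 sites that gained accessibility in exudate against blood, 111 (73.5%) also gained it in membrane against bone marrow, which is 53.6% of that list's 207. Over all merged sites, 2109 were in both of these lists, 74.4% and 52% of them. For exudate against bone marrow and membrane against blood, 98 sites were more accessible in both, 42.6% of the 230 and 83.8% of the 117, near the 39.8% and 83.7% over all merged sites. In each pair 21 sites were less accessible in both. This is 42.9% and 19.3% of the first pair's lists (42.2% and 21.4% over all merged sites) and 20.4% and 46.7% of the second pair's (18.2% and 44.9%). No far intergenic site was in lists of opposite direction in either pair. Over all merged sites 1 and 2 were in the first pair, and 0 and 5 in the second.

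Some gene-free intervals held several listed sites, and 254 of the 911 intervals held a listed site. For exudate against bone marrow 66 intervals held 2 or more listed sites, and in 15 of them both directions occurred. The corresponding numbers were 64 and 18 for membrane against bone marrow, 40 and 9 for exudate against blood, 28 and 4 for membrane against blood, and 9 and 0 for blood against bone marrow. Sites of 1 interval are neighbours and not replicates.

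The interval between Trib1 and Gm7083 (chr15:59656551-59977721) had the most listed sites. Trib1 encodes a pseudokinase that directs C/EBPα to degradation and takes part in granulocyte and macrophage differentiation. It held 31 far intergenic sites, spread from 58.89 to 239.7 kb from the Trib1 start, of which 19 were listed, and every one of the 19 was more accessible in every list that held it. In the separate comparisons, 16 were more accessible in exudate than bone marrow, 19 in membrane than bone marrow, 10 in exudate than blood, 9 in membrane than blood and 4 in blood than bone marrow. The site at chr15:59795573-59796147, 147.2 kb from Trib1, had −log10 adjusted p of 33.7 for exudate and 28.1 for membrane against bone marrow, 16.5 and 12.6 against blood, and 2.24 for blood against bone marrow in the authors' deposited lists. Another site of the interval, at chr15:59759557-59760092, was likewise in 5 lists, with 27.4 for exudate against bone marrow. The site with the highest value for blood against bone marrow (6.72), at chr15:59807646-59808205, was in the 2 bone marrow comparisons of the pouch at 15.3 and 16.5 and in no comparison with blood. RefSeq starts that the rule does not use lay 0.614, 34.87 and 12.69 kb from these sites, in the order named. Unlisted sites included the one with the highest deposited score in the interval, 1300, made of 8 peaks at 79.99 kb.

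Beside Id2, an inhibitor of DNA binding by basic helix-loop-helix factors, the interval to ENSMUSG00000102431 (chr12:25096093-25562368) also held 31 far intergenic sites, but directions were mixed. Of 12 listed sites, 8 were more accessible and 2 less accessible in exudate than bone marrow. The 8 lay between 59.6 and 342.8 kb from the Id2 start, 7 of them within 185.6 kb, with up to 6.97 at 93.38 kb. The 2 less accessible sites were adjacent, at 235.3 and 239.2 kb, with 7.12 and 2.7 in the authors' deposited list. Most of the 8 more accessible sites, among them the one at 93.38 kb, overlapped a RefSeq gene body. Neither of the 2 less accessible sites did. A further site at 297.9 kb was more accessible in blood than bone marrow (4.63) and less accessible in exudate (3.42) and membrane (3.97) than blood, all in the authors' deposited lists.

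Between Gli3 and Inhba (chr13:15730027-16011850) lay 21 far intergenic sites, 8 of them listed. Inhba encodes the activin A subunit, a secreted TGF-β family factor. In exudate 7 were more accessible than in bone marrow and 6 more than in blood, and none was less accessible in either, while 1 was less accessible in blood than bone marrow. The strongest, at chr13:15907715-15908276, 103.9 kb from Inhba, had 16.1 and 16 in these authors' deposited lists, and 10.7 and 10.9 in the membrane lists against bone marrow and blood. The site that holds the A530046M15Rik window printed above had 4.37 and 4.5. Of the 21 sites, 19 overlapped a RefSeq gene body that the count table did not include. Outside this interval, a site at chr13:16459680-16460248 had Inhba as its nearest tested gene, at 447.8 kb. The authors' deposited lists also give that site to Inhba, and it was less accessible in the pouch. Its values were 7.03 and 3.46 for exudate and 9.54 and 5.44 for membrane, against bone marrow and blood.

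The interval between Cd44 and Pdhx (chr2:102901666-103021074) had the highest listed share among intervals with 10 or more sites, with 10 of 11 in a list. Cd44 encodes the hyaluronan receptor through which leukocytes adhere to matrix and endothelium. In the separate comparisons, 9 were more accessible in exudate than bone marrow, 9 in membrane than bone marrow, 4 in blood than bone marrow, and 3 in each of exudate and membrane against blood. The site at chr2:102981352-102981891, 79.69 kb from Cd44, was in all 5 lists of greater accessibility, with 15.5 for exudate and 16.9 for membrane against bone marrow, 5.68 and 6.62 against blood, and 1.76 for blood against bone marrow, in the authors' deposited lists. A RefSeq start lay 39.03 kb from this site. Intervals chosen after their values were seen had 8 listed sites each, Fndc3a to Cysltr2 with 8 of 11 and Bcl6 to Lppos with 8 of 20. In the first all 8 were more accessible in exudate and in membrane than in bone marrow.

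**Figure D4:**
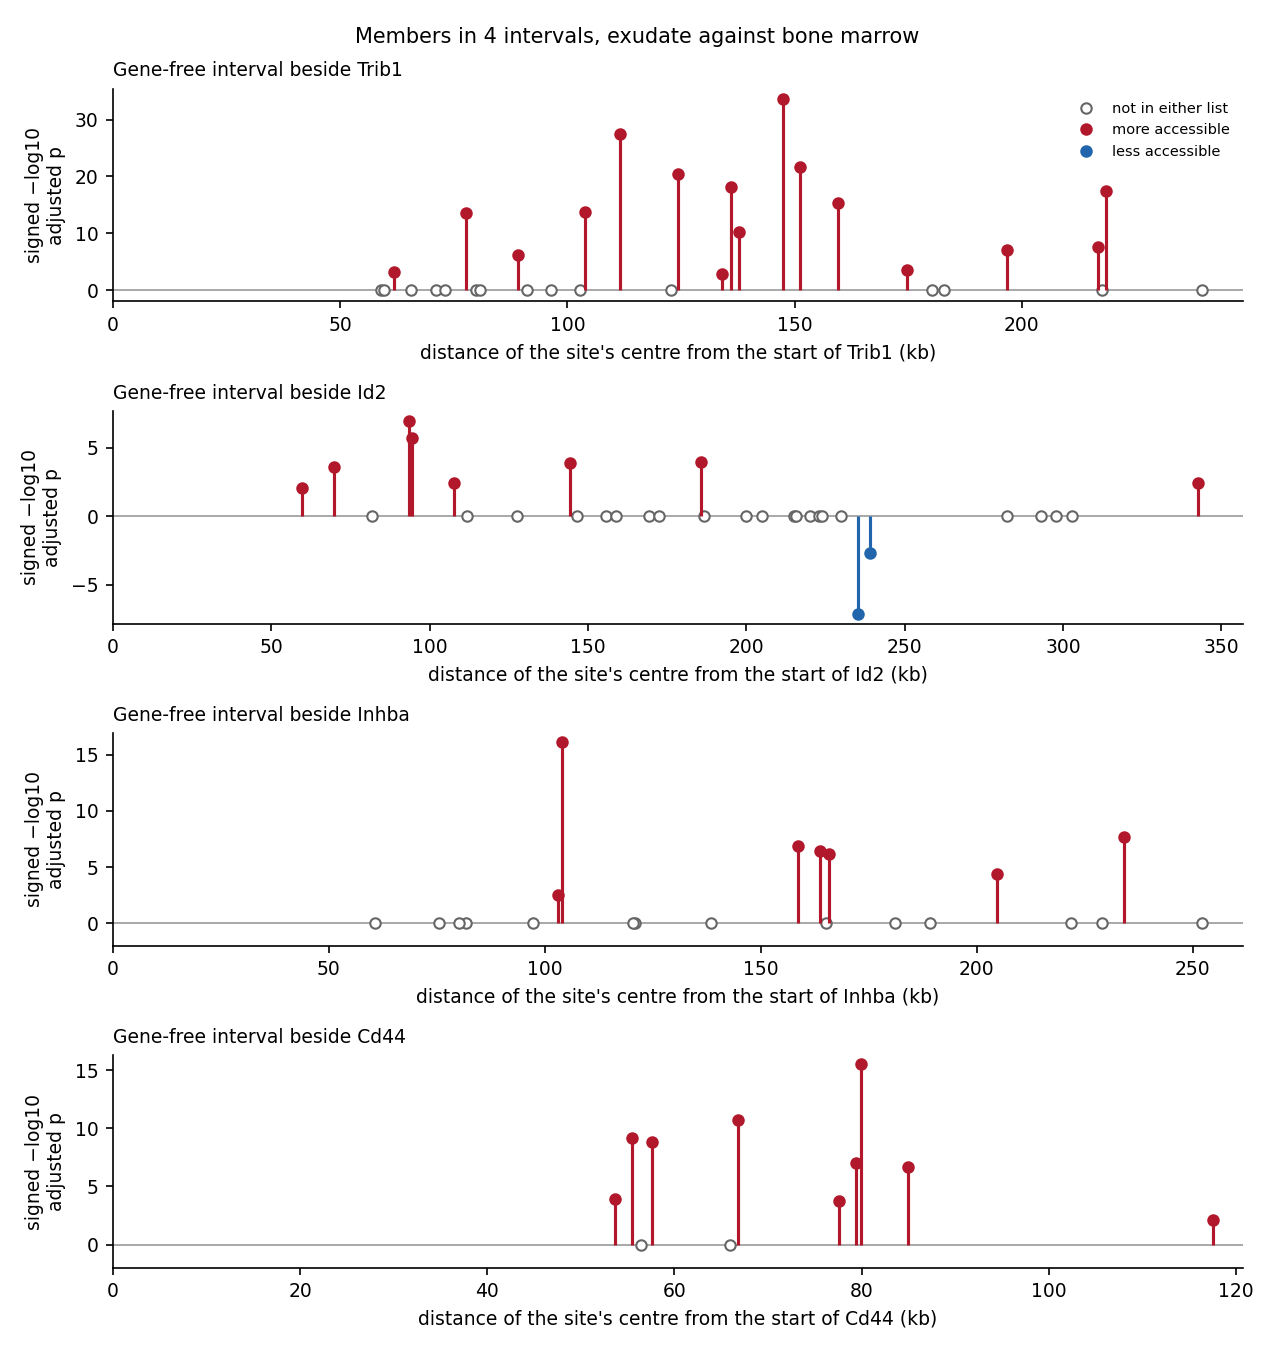
Far intergenic sites of 4 gene-free intervals for exudate against bone marrow, by the distance of the site's centre from the start of Trib1, Id2, Inhba or Cd44 (kb). The vertical axis is the deposited −log10 adjusted p, with less accessible sites drawn below 0 and open circles at 0 for sites in neither list. Beside Trib1, Inhba and Cd44 all listed sites are more accessible (16, 7 and 9), and beside Id2 2 sites at 235.3 and 239.2 kb point the other way.

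The highest values of single sites were spread over several chromosomes. In the interval from Gm15554 to Samsn1, an immune adaptor protein gene, the site at chr16:75837626-75838464 had 40.4 for membrane against bone marrow and 32.8 for exudate against bone marrow in the authors' deposited lists, and 14.5 and 9.9 against blood. The authors' deposited lists give it to Hspa13, also its nearest tested gene at 70.81 kb. At chr15:67780843-67781420, 477.4 kb from Zfat and given to St3gal1 in the authors' deposited lists, a site had 32.2 for exudate against bone marrow and 21.4 against blood. The site at chr4:102623711-102624735, in the interval after Pde4b, a cyclic AMP phosphodiesterase gene, led the comparisons with blood, at 22.6 for exudate and 17.3 for membrane. Against bone marrow the Pde4b site had lower values in the authors' deposited lists, 11.5 and 7.78. The sites at chr6:100409670-100410604 near Rybp, a Polycomb subunit, and at chr8:126683872-126684432 beside Irf2bp2, a transcriptional corepressor, were in all 4 pouch lists of greater accessibility, with 18.4 and 12.3 for exudate against blood. The genes named with the Pde4b and Irf2bp2 sites flank their intervals, are those given by the authors' deposited lists and were chosen after their values were seen, while the nearest tested genes are Sgip1 at 116.6 kb and Gm45805 at 73.9 kb. RefSeq starts lay 33.87 and 45.32 kb from the Pde4b and Irf2bp2 sites. The Samsn1, Zfat and Rybp sites were also far from RefSeq genes.

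Among less accessible sites, the highest value was at chr3:54567275-54567842, 63.6 kb from Gm26678 and 125 kb from Supt20, with 24.4 for exudate, 15.1 for membrane and 6.51 for blood, each against bone marrow, in the authors' deposited lists. In the interval from Ntrk2 to Agtpbp1 the sites at chr13:59228048-59228826 and chr13:59242520-59243175 were less accessible in exudate than blood (5.69 and 5.99) and than bone marrow (7.3 and 12.2) in the authors' deposited lists. A site at chr13:55904752-55905302 beside Pitx1 had 10.3 for exudate against bone marrow. Beside Arfgef1, sites at chr1:10314709-10315262 and chr1:10318557-10319056 were less accessible in blood (6.45 and 5.97), exudate (6.29 and 4.16) and membrane (3.91 and 4.63) than in bone marrow in the authors' deposited lists, and neither was in a list against blood. By RefSeq, the Pitx1 site, both Arfgef1 sites and the second Ntrk2 site lay in gene bodies. RefSeq starts were 32.38 kb from the chr3 site and 11.49 and 12.41 kb from the Ntrk2 sites.

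The authors' gene for a listed far intergenic site was the nearest gene of the count table for 147 of 466 sites (31.5%), and the nearest gene that passed the count filter of the tissue fit for 193 (41.4%). The nearest tested gene lay a median of 170173 bp away, and 820 distinct tested genes served as nearest to a site. The fixed gene lists were read at these 820 genes. Of 36 granulocyte transcription factors, 8 were nearest to 70 far intergenic sites, of which 28 (40%) were listed, compared with 22.6% of all far intergenic sites. Of these, Id2 had 31 sites, Klf6 18 and Bcl6 10, so a few intervals make up the count. The migration and receptor list had 13 sites at Cd44, Cxcr4 and Tlr2, with 10 listed, 9 of them at Cd44. Survival and signalling genes had 6 sites at Tnfaip3 and Nfkbiz, with 4 listed, among them a single-peak site 1394 kb from Nfkbiz. Cytokine and chemokine genes had 3 sites, all at Vegfa, and interferon-stimulated genes 2, both at Mx2, none listed. None of the 17 granule genes was nearest to a far intergenic site.

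Klf6 and Runx1 are among the factors that the series deletes in ER-Hoxb8 cells, and both had listed sites. For Klf6, a zinc finger factor induced in activated myeloid cells, 5 of 18 sites at 51.66 to 510.2 kb were listed, and all 5 were more accessible in exudate than bone marrow. The Klf6 site at chr13:5769593-5770139 had 12.3 for exudate and 13.7 for membrane against bone marrow, and 7.58 and 8.69 against blood, in the authors' deposited lists. For Runx1 5 of 6 sites were listed, 4 of them more accessible in exudate than bone marrow and 1 less accessible in exudate than blood. The Runx1 site at chr16:93008982-93009504, 182.8 kb away, had 19.8 for exudate against blood and 19.6 against bone marrow in the authors' deposited lists. Tnfaip3, which encodes the NF-κB inhibitor A20, had a site at chr10:18943176-18944039, 71.62 kb away, with 7.49 for exudate against bone marrow. Nfkbiz, a nuclear co-regulator of NF-κB, had a site at chr16:55698500-55699104, 139.8 kb away, with 9.93 for exudate against blood in the authors' deposited list. The authors' deposited lists give the Klf6, Tnfaip3 and Nfkbiz sites to Gm5444, Perp and Zpld1, and the Runx1 site to Runx1. Their nearest annotated starts were those of Gm26043 (51.72 kb), Gm48483 (56.15 kb), Gm26369 (80.04 kb) and Gm28003 (63.25 kb), in the same order. A RefSeq start lay 33.02 kb from the Klf6 site.

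RNA of the nearest tested genes gave few calls between tissues after adjustment over all genes. With edgeR and all libraries no gene nearest to a listed site was called at an adjusted p under 0.05 in any of the 5 comparisons, where the background of called genes was 0.178% for exudate against bone marrow, 0.0162% for blood against bone marrow, 0.0162% for membrane against bone marrow, and 0 for exudate and 0 for membrane against blood. For exudate against bone marrow, the 122 genes nearest to more accessible sites had a median log2 fold change of 1.10, against 0.13 over all 12330 genes, and 30 were higher and 10 lower at an unadjusted p under 0.05. Their 32.8% at that unadjusted level compares with 23.1% of all genes tested. The 87 genes nearest to less accessible sites had a median of -0.02, with 7 higher and 14 lower at that level. DESeq2 called 12 of the 122 higher (with Cd44, Pim1 and Nampt among its 18 calls) and 6 lower, out of 1688 genes called over the whole table. For exudate against blood the medians were 0.87 beside 87 genes of more accessible sites and -0.32 beside 42 genes of less accessible sites, against -0.35 over all genes. At an unadjusted p under 0.05, 7 of the 87 were higher and 12 lower (21.8%, against 19.1% of all genes), and DESeq2 called 0 higher and 8 lower, out of 1211 genes called over the whole table.

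The comparisons with membrane and of blood against bone marrow had no edgeR call either. The 111 genes nearest to sites more accessible in membrane than bone marrow had a median log2 fold change of 0.28 against -0.75 over all genes, with 19 higher and 2 lower at an unadjusted p under 0.05 (18.9%, against 13.3% of all genes) and 8 higher and 5 lower by DESeq2, of 1682 genes called over the whole table. The 94 genes of less accessible sites had a median of 0.00, with 6 higher and 4 lower at that unadjusted level. For membrane against blood the medians were -0.08 (70 genes) and -0.46 (43 genes), against -1.74 over all genes, with 5 and 1 higher and 3 and 1 lower at the unadjusted level (11.4% and 4.65%, against 7.81% of all genes). For blood against bone marrow they were 0.39 (23 genes) and -0.45 (18 genes), against 0.38, with 3 and 2 higher and 0 and 1 lower (13% and 16.7%, against 11.7% of all genes). Another scaling (RLE) shifted the median of all genes by -0.19 to -0.46 in the 5 tissue comparisons, so the distance to that median is the quantity to read. In bulk RNA, fewer cells that express a gene and less of its RNA per cell cannot be told apart.

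Within the libraries whose headers carry the same 100 or 300, the medians of the nearest genes and of all genes both differed from those over all libraries. For exudate against blood, genes beside more accessible sites had a median log2 fold change of 0.00 against -1.82 over all genes with 100, and 1.28 against 0.13 with 300. Genes beside less accessible sites had -0.25 and -0.60 against the same values. For exudate against bone marrow with 100, the medians were 0.44 beside more accessible and -0.52 beside less accessible sites, against -1.05 over all genes. In that fit edgeR called 5 nearest genes at an adjusted p under 0.05, of 339 called over all genes. Arrdc4, Map3k8 and Marcks were higher and Gcnt1 lower beside more accessible sites, and Map3k8 and Tpd52 higher beside less accessible ones, Map3k8 being nearest to sites of both kinds. Map3k8 encodes a kinase that activates the ERK pathway, and Marcks a membrane-bound substrate of protein kinase C. For membrane against blood with 300, the medians were 0.80 and 0.00 against -0.34 over all genes. Membrane and bone marrow share no such group, so that comparison has no value within one. These fits were added after the data were seen.

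Levels of the genes beside the named intervals spread widely within a tissue. The share of all genes whose libraries separate between tissues is not given here, so a gene without overlap has no background. Trib1 was at 203, 613, 627, 670 and 739 CPM in the 5 exudate libraries, at 95.6, 101, 265, 366 and 399 in blood, at 204, 258 and 350 in bone marrow and at 258 and 449 in membrane. In exudate 4 of the 5 libraries lay above every other library, and the remaining one was below all but 2 of the blood libraries. The Trib1 log2 fold change for exudate against bone marrow was 1.08 (SE 0.77, edgeR adjusted p = 0.41). Cd44 was at 1181 to 2395 CPM in exudate, 1448 and 2057 in membrane, 347 to 1525 in blood and 248, 314 and 419 in bone marrow. Every exudate and membrane library of Cd44 was above every bone marrow library, while blood overlapped with both. Its log2 fold change was 2.35 (SE 0.66, edgeR adjusted p = 0.1) for exudate against bone marrow, and DESeq2 gave an adjusted p of 0.028.

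Samsn1 was at 925, 2730, 4003, 6449 and 6972 CPM in exudate, 4185 and 4268 in membrane, 513 to 4106 in blood and 416, 491 and 623 in bone marrow. All exudate and membrane libraries exceeded bone marrow, with a log2 fold change of 3.05 (SE 0.81, edgeR adjusted p = 0.092) for exudate. The Samsn1 adjusted p by edgeR was 0.029 without the lowest exudate library and 0.012 with only the libraries whose headers carry 100. Samsn1 flanks the interval and was chosen after its values were seen. Hspa13, a heat shock protein family gene that is the nearest tested gene to that site and the one the authors' deposited lists give, was at 0, 0, 0.153, 0.863 and 17.6 CPM in exudate, 42.1 and 185 in membrane, 0.0596 to 56.7 in blood and 3.98, 11.5 and 34.6 in bone marrow. Exudate and bone marrow libraries of Hspa13 overlapped, with a log2 fold change of -2.17 (SE 1.97, edgeR adjusted p = 0.53). Both membrane libraries of Hspa13 were above every bone marrow library (log2 fold change 2.76, SE 2.53, edgeR adjusted p = 0.56). Pde4b was at 31.7, 452, 658, 787 and 823 CPM in exudate and 3.78, 48.4 and 90.4 in bone marrow, and a single exudate library lay within the bone marrow range (log2 fold change 3.53, SE 1.25, edgeR adjusted p = 0.13). Sgip1, the nearest tested gene to the Pde4b site, was at most 0.891 CPM in exudate and 3.4 in blood and at 0 in both membrane libraries. Klf6 was at 425 to 1725 CPM in exudate and 210, 280 and 392 in bone marrow, without overlap (log2 fold change 1.62, SE 0.74, edgeR adjusted p = 0.2).

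Genes beside other intervals overlapped between exudate and bone marrow. Id2 was at 0.153, 0.461, 24.9, 46.9 and 62.3 CPM in exudate and 61.4, 149 and 199 in bone marrow, with 1 exudate library overlapping the lowest bone marrow library. Its log2 fold change was -2.34 (SE 1.36, edgeR adjusted p = 0.3), while 8 of the 10 sites listed beside it in that comparison were more accessible. Inhba was at 0.229 to 193 CPM in exudate and 10.5, 53.9 and 213 in bone marrow, with overlapping ranges and a log2 fold change of -0.33 (SE 1.47, edgeR adjusted p = 0.93) that was 1.19 without bone marrow replicate 1 and 0.48 with only the libraries whose headers carry 100. Bcl6, a transcriptional repressor, was at 42.2 to 379 CPM in exudate and 118, 157 and 414 in bone marrow, and Runx1 at 0.612 to 91.7 and 3.37, 4.33 and 59.4. Zfat was at 0 to 0.713 CPM in exudate and 0, 0 and 3.72 in bone marrow. Beside less accessible sites, Supt20 was at 0 to 38.5 CPM in exudate and 29.3, 45.5 and 50.3 in bone marrow, Agtpbp1 at 3.14 to 91.2 and 0, 14.6 and 20.3, and Arfgef1 at 8.6 to 159 and 64.2, 116 and 142. The libraries of these 3 genes overlapped, with log2 fold changes of -1.47, 1.46 and -0.91 (edgeR adjusted p = 0.68, 0.7 and 0.69). Monocyte and macrophage markers were higher in pouch than bone marrow libraries (662 to 982 against 3.96 to 165 CPM), and their part in these levels was not tested.

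**Figure D5:**
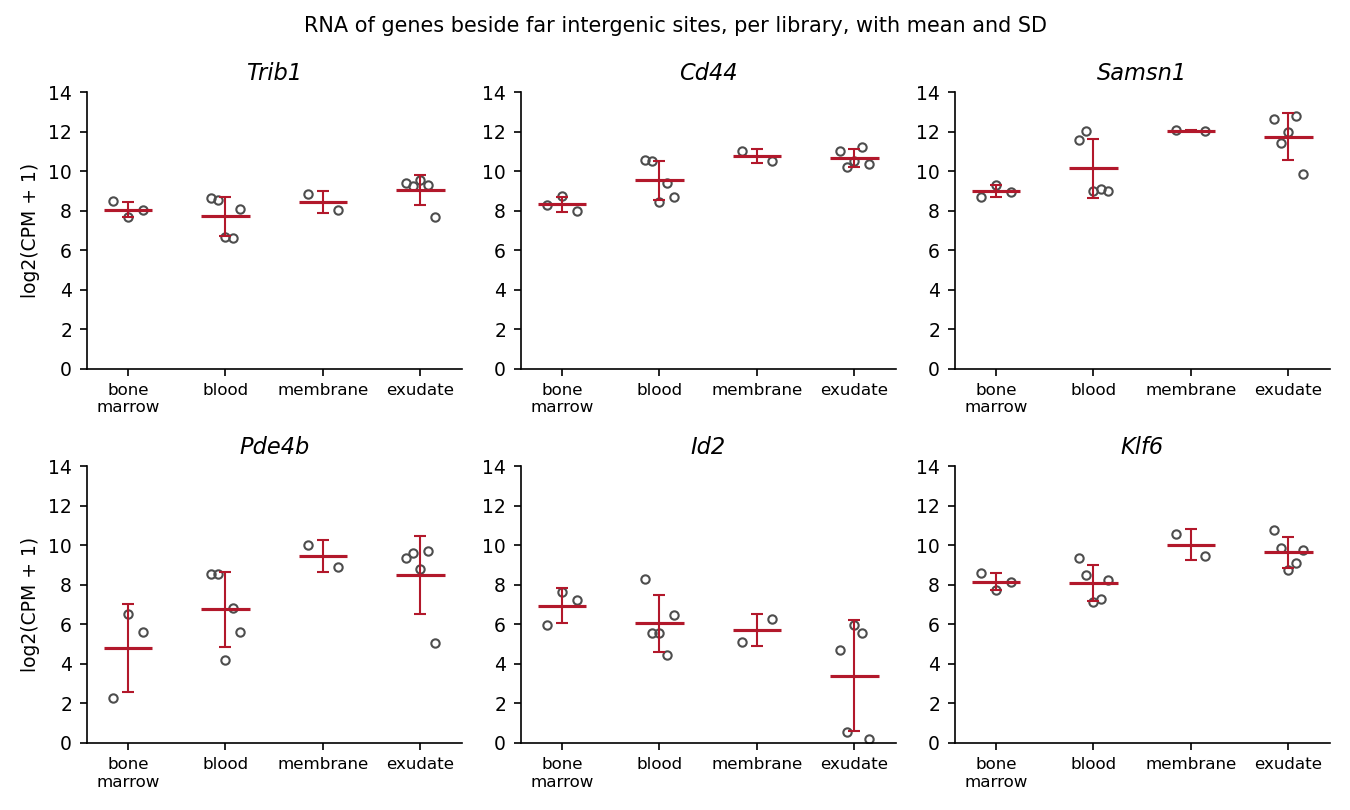
RNA of 6 genes beside far intergenic sites in each tissue library, as log2(CPM + 1), with points for libraries and red bars for the mean and SD (3 bone marrow, 5 blood, 2 membrane and 5 exudate libraries). Samsn1, Cd44 and Klf6 lie higher in every exudate and membrane library than in any bone marrow library, while Id2 is at 0.153 and 0.461 CPM in 2 exudate libraries.

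The zymosan response of wild-type ER-Hoxb8 cells gave a measurement in other cells than those of the site lists. Among the genes nearest to sites more accessible in exudate than blood, 49 of 77 tested (63.6%) rose with zymosan in set 1, against a background of 35.7% of all genes, and 23 (29.9%) fell, against 39.9%. In set 2, 55 of 78 (70.5%) rose against 36.3%, and 17 (21.8%) fell against 32.1%. Genes nearest to sites less accessible in exudate than blood also rose more often than they fell, 21 of 39 (53.8%) and 8 (20.5%) in set 1, and 26 of 41 (63.4%) and 9 (22%) in set 2. The genes nearest to any far intergenic site rose in 50% (292 of 584) and 52.1% (321 of 616) and fell in 31.2% and 27.3% of cases. The median log2 fold change was 0.69 and 0.50 for genes beside the more accessible sites in sets 1 and 2, 0.33 and 0.32 beside the less accessible ones, 0.22 and 0.31 for all nearest genes, and -0.07 and 0.05 over all genes tested. Both sets are 2 libraries a group, and their differences from one another were not tested.

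Most genes of the named intervals rose in both sets. Nfkbiz was at 126 and 127 CPM with DMSO and 4933 and 4960 with zymosan in set 1 (log2 fold change 5.29, SE 0.04, edgeR adjusted p = 1.8e-68), and rose by 4.24 on the log2 scale in set 2. Tnfaip3 was at 135 and 142 CPM with DMSO and 4145 and 4187 with zymosan in set 1, with log2 fold changes of 4.91 and 3.05 in sets 1 and 2 (edgeR adjusted p = 4.4e-66 and 9.4e-89). Inhba was at 11.8 and 13.6 against 341 and 354 CPM in set 1 and at 8.99 and 9.97 against 160 and 166 in set 2, a log2 fold change of 4.78 and 4.10. Libraries with and without zymosan did not overlap for any of these 3 genes. Calls were common in these sets, with 35.7% of all genes higher and 39.9% lower in set 1, and 36.3% and 32.1% in set 2. Inhba rose in culture, while its exudate and bone marrow libraries overlapped.

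Trib1 was at 262 and 270 CPM with DMSO and 787 and 824 with zymosan in set 1, and at 138 in both DMSO libraries and 1234 and 1258 with zymosan in set 2 (edgeR adjusted p = 3.4e-44 and 5.1e-87, log2 fold change 3.18 in set 2). Cd44 was at 725 and 759 against 3005 and 3021 CPM in set 1 and 1656 and 1662 against 4164 and 4192 in set 2 (2.02 and 1.33). Samsn1, Pde4b, Klf6 and Runx1 rose too, with log2 fold changes of 1.90, 2.49, 1.01 and 1.38 in set 1 and 2.55, 1.59, 1.66 and 0.82 in set 2. Hspa13, the nearest tested gene to the Samsn1 site, rose by 2.19 in set 1 and 2.53 in set 2 on the log2 scale. Id2 rose by 1.02 and 0.31, and Bcl6 by 0.36 and 0.41. Irf2bp2 fell by 1.65 and by 0.49 on the log2 scale, from 180 and 181 to 56.3 and 58.3 CPM in set 1. In the tissues Irf2bp2 was at 85.7 and 96.1 CPM in membrane, 0 to 87 in exudate and 0, 2.47 and 13.8 in bone marrow, with log2 fold changes against bone marrow of 4.06 for membrane and 2.77 for exudate (edgeR adjusted p = 0.38 and 0.41). The ER-Hoxb8 cells had no ATAC-seq libraries here, so accessibility and RNA were not read in the same cells.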

How the data were processed

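Accessibility was read in 8 ATAC-seq libraries and RNA in 15 tissue and 8 wild-type ER-Hoxb8 libraries. Per the submitters' processing notes, cutadapt, Bowtie2, MACS2, deepTools and DESeq2 were used for ATAC-seq on mm10/GRCm38, and STAR, featureCounts and DESeq2 for RNA. Which settings were used is not given in the sources used here. The deposited merged peak file gives a score per site, whose scale is unknown, and the number of peaks merged into it. The deposited lists of differential sites give a −log10 adjusted p and a gene per site. RNA counts per gene were deposited from featureCounts 1.5.0-p2 (tissues, without strand) and 1.6.3 (ER-Hoxb8), per the file headers.

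Sites were classed by the gene models of the tissue count table (50000 bp from gene starts, 1000 bp for sites at a start), and RefSeq tables for GRCm38.p6 were used as a second annotation. Gene symbols were found for 50376 of 50600 gene IDs (99.6%). Counts were tested with edgeR 4.0.16 (limma 3.58.1, R 4.3.3), TMM scaling and the quasi-likelihood test, after filterByExpr (minimum count 10, total 15, proportion 0.7), at a Benjamini-Hochberg adjusted p under 0.05 over all genes. The 15 tissue libraries were fitted together, and each ER-Hoxb8 set was fitted with its knockouts. The code was tested on simulated data. Tables were handled with Python 3.11.15 and pandas 2.3.3. Alternatives were DESeq2 1.42.0, RLE scaling, no count filter, only the compared tissues, other distance limits, an adjusted p under 0.01 for the lists, intervals counted once, a replicate block and leaving out each library. The restriction by RefSeq and the omission of scaffolds were chosen after seeing the data.

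Sites were named as the 3 with the highest −log10 adjusted p in each list, the 3 intervals with the most sites and the 3 with the most listed sites, the 3 strongest shared by lists without common libraries, up to 4 listed sites per gene list, and the 3 on either side of the distance limit. RNA values are given for the nearest tested gene of the leading sites, and any other site, window, interval or flanking gene (such as Samsn1 and Pde4b) was chosen after its values were seen. The members and lists were chosen with earlier results of these data known. A further 18 count columns that match no sample here were left out, and a later ER-Hoxb8 table was not used. Tissue columns name the group but not the sample, so tissue libraries are numbered in column order. Their headers carry 100 or 300 and a number (m1 to m4) that recur across tissues and match no label. Fits with these as a block, with a term for 100 or 300, and within each were added after seeing the data. Sequence was read only from RefSeq start windows, as no genome was used here. The level of 1 marker gene is not reported here.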

Additional observations from a re-analysis of the deposited data

Results flagged for a closer look

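Libraries that stood apart from the other 4 of their tissue were sought in 72 groups over 36 named genes, by the gap from the highest or lowest library to the next, relative to the whole range. In all, 20 groups were flagged. The limit used flags about 1 in 20 groups by chance only if values are normally distributed, and CPM were not transformed. Where a single library has counts, as for Gm17036 in exudate and blood and Cysltr2 in exudate, the ratio is always at its highest. The chance rate for these groups is therefore unknown, and whether the 20 exceed it cannot be told. The genes share libraries, so the flagged groups are not independent. All values are CPM.

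In exudate, library 5 was highest for Gda (2517), Zfand5 (1154, next 241), Tmx4 (30.7, next 7.48) and Cysltr2 (0.153, all others at 0), and lowest for Trib1 (203, next 613). Exudate library 2 was highest for Agtpbp1 (91.2, next 27.5) and Gm45805 (12.3, next 0.178), library 4 for Hspa13 (17.6, next 0.863), library 1 for Sgip1 (0.891, next 0.235) and library 3 for Gm17036 (0.0784, others at 0).

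In blood, library 1 was highest for Id2 (309, next 87.5), Cxcr4 (74.3, next 25.4), Agtpbp1 (38.1, next 11), Cysltr2 (8.41, next 0.655) and Rybp (1.84, next 0.5). Blood library 2 was highest for Nfkbiz (1074, next 413) and Gm4992 (4.78, next 0.0482) and lowest for Dleu2 (3.28, next 81). Blood library 3 was highest for Sgip1 (3.4, next 0.351) and library 4 for Gm17036 (0.138, others at 0).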

How the results depend on the processing

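Of 215 alternatives for the main results, 179 stayed within the set bounds, as did 50 of 70 for the shares of far intergenic sites in the lists. Restricted to sites also far from RefSeq genes, the shares were 0.964% more and 0.613% less accessible for blood against bone marrow, 5.08% and 1.58% for exudate against blood, 7.98% and 3.77% for exudate against bone marrow, 3.42% more accessible for membrane against blood and 6.31% for membrane against bone marrow. Over 100000 bp from genes they were 0.595% less accessible for blood against bone marrow, 5.47% more accessible for exudate against blood, and 3.33% and 4.04% less accessible for exudate and membrane against bone marrow. Over 25000 bp, 13.1% and 12.1% were more accessible in exudate and membrane than bone marrow. At an adjusted p under 0.01 the shares were 9.8% more and 3.59% less accessible for exudate against bone marrow, 8.3% and 3.4% for membrane against bone marrow, and 1.75% and 1.46% less accessible for exudate and membrane against blood. With intervals counted once, the medians were 49.1 for the score, 1.5 for merged peaks and 502 bp for the width. The cause of these shifts was not tested.

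Called nearest genes in the tissues, 0 by edgeR, were 9, 26, 8 and 20 by DESeq2 for exudate against blood, exudate against bone marrow, membrane against blood and membrane against bone marrow. DESeq2 called 1211, 1688, 1257 and 1682 over all genes, in the same order. Without a count filter, called nearest genes were 1, 2 and 1 for exudate against blood, exudate against bone marrow and membrane against bone marrow (80, 266 and 140 over all genes). With only the compared tissues they were 3 for membrane against bone marrow (128 over all genes). Leaving out 1 library gave 0 to 4 for exudate against bone marrow, with 4 without exudate replicate 5. The calls over all genes in those fits are not given here, so these counts have no background. Of 539 alternatives for named genes, 519 kept direction and call. Inhba for exudate against bone marrow was 1.19 without bone marrow replicate 1 and down to -1.09 without exudate replicate 1 (from -0.33). Bcl6 was 0.35 without bone marrow replicate 1 and down to -0.89 without exudate replicate 5 (from -0.38). Bcl6 for exudate against blood, 0.06, was -0.26 with RLE, -0.26 with DESeq2, -0.25 with only these tissues, and -0.01, -0.05 and -0.46 without blood replicate 1, exudate replicate 2 and exudate replicate 5, and up to 0.31 without exudate replicate 3. Cd44 for exudate against bone marrow passed with DESeq2 (adjusted p 0.028), and Samsn1 with DESeq2 (0.032), without a filter (0.0042) and without exudate replicate 5 (0.029).

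With the replicate block, higher and lower nearest genes in ER-Hoxb8 cells were 49 and 23 (more accessible) and 21 and 8 (less accessible) in set 1, and 55 and 17, and 26 and 9, in set 2, as without it. Same-numbered libraries had a correlation of deviations of -0.04 in set 1 and -0.01 in set 2, so no shared shift was seen. With 2 libraries per group, this cannot tell whether the numbers pair them. For the tissues, a replicate block by the header names gave 5 called nearest genes for exudate against bone marrow and 4 for membrane against bone marrow (290 and 273 over all genes), and 0 in the other comparisons. A term for 100 or 300 gave 4 for exudate against bone marrow, and libraries with 100 alone 5 (188 and 339 over all genes). Libraries of different tissues with the same header name had correlations of deviations of -0.04 to 0.10 over 11 pairs, so these names were not taken to pair them. Inhba was 0.72 with this block and 0.48 with the libraries with 100 alone for exudate against bone marrow, and -0.02 with those with 300 alone for exudate against blood (from 2.02). Bcl6 for exudate against blood was -0.23 with the block and -0.21 with 300 alone. Samsn1 for exudate against bone marrow passed with the block (adjusted p 0.00095), the term (0.035) and 100 alone (0.012). Sequence features of the sites, with their alternative of 200 bases, were not run.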
